A study of Mus musculus with 8 samples.

Results

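The mRNAs of tubulin isotypes and of stathmin were followed in NIH3T3 cells, fibroblasts of a mouse embryo line in which Hedgehog ligand can be studied. The 10 genes were Tubb2c (now named Tubb4b), Tubb5, Tubb2a, Tubb2b, Tubb3 and Tubb6, which code for beta-tubulins, Tuba1a, Tuba1b and Tuba1c, which code for alpha-tubulins, and Stmn1. Of these, 8 were among the 20197 genes with a value of their own in all 8 samples. The genes were chosen by name when their mRNA concentrations across the conditions were already known, so their levels and differences are given as a description, without p-values. Each gene was read from the deposited locus whose mm9 span overlapped it best, as the shared length divided by the length covered by either, with a limit of 0.5. Of the 10 genes, 8 had such a locus in every sample, with an overlap of 0.986 to 1.0. Tuba1a and Tuba1b did not pass. They lie next to each other on chromosome 15, and in all 8 samples 1 assembled locus ran across both, with an overlap of 0.165 to 0.168 for Tuba1a and 0.142 for Tuba1b. That locus is reported as Tuba1a/Tuba1b, 1 value for the pair, which makes 9 loci in all.

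Microtubules are polymers of dimers of alpha- and beta-tubulin. The isotypes differ mainly in the acidic tail at the end of the protein, and they are used in different mixtures in different cells: Tubb5 is widely expressed, Tubb2c is found in many cells and in cilia, Tubb2a, Tubb2b and Tuba1a are abundant in brain, and Tubb3 is a marker of neurons. Stathmin binds tubulin dimers and promotes the shrinking of microtubules, and it is abundant in dividing cells. Cells also adjust the stability of tubulin mRNAs to the amount of free tubulin, through a short motif at the start of the nascent tubulin chain. The primary cilium, which is built on microtubules, is the place where vertebrate cells receive the Hedgehog signal.

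All cells had been stably transfected with the pcDNA3.1 vector and selected with Zeocin. Control and Hh-CM cells (NIH3T3-pc3.1) carried the empty vector, and Esrrb and Esrrb + Hh-CM cells (NIH3T3-Esrrb) carried the vector with Esrrb, the estrogen related receptor beta. Hh-CM and Esrrb + Hh-CM cells were kept for 48 h in Hh-CM at a dilution of 1:100, a medium in which HEK293 cells (a line from human embryonic kidney) with a Shh-N transgene had grown. Control and Esrrb cells received, at an equal dilution, medium of HEK293 cells that lacked the transgene. The established cells of independent transfections had been pooled, the cells were confluent when treated, and each of the 4 conditions had 2 samples. The paper calls the 2 samples of a condition biological replicates. It is not stated whether they came from separate transfections. Errors and p-values therefore measure the spread between these samples, which may leave out the spread between transfections.

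The values are FPKM, fragments scaled to the length of the transcript and to the mapped fragments of the library, so levels can be compared between genes per length. The values used here come without read counts. Taking Control replicate 1 as 1, the estimated depth was lowest in Esrrb + Hh-CM replicate 2 (0.743) and highest in Hh-CM replicate 2 (1.54). The Hedgehog targets followed the labels: Gli1 was at 0.0262 ± 0.0064 FPKM in Control and 27.4 ± 0.908 FPKM in Hh-CM cells, and at 0.0716 ± 0.0487 FPKM in Esrrb and 34.6 ± 0.178 FPKM in Esrrb + Hh-CM cells (SD, n = 2 each). The Esrrb gene was listed at 0 FPKM in all samples labelled Esrrb or Esrrb + Hh-CM, and at no more than 0.0281 FPKM elsewhere. The labels on the transfected cells could therefore not be checked with these values, and Esrrb below stands for the samples labelled so. By Western blot, the paper reports an increased concentration of Esrrb protein in NIH3T3-Esrrb cells. The 9 fibroblast markers summed to between 5890 and 6859 FPKM per sample, with Vim and Col1a1 among them. Thy1 was the one of them named by the rule for the text. Its log2 difference between Esrrb + Hh-CM and Control was 2.59 ± 0.05 (SE, limma adjusted p = 5.72e-06). The markers did not move together: at an adjusted p below 0.05 alone, 3 of the 9 were higher and 2 lower in this comparison. That stands beside 23% and 12% of all tested genes. The median log2 difference of the 9 was 0.04, beside 0.08 over all tested genes. Of 11 neuron markers, 10 stayed below 1 FPKM in all samples, and the sum of all 11 was at most 2.33 FPKM. The exception was Snap25, at no more than 2.02 FPKM. Of 9 markers of other cell types, 8 stayed below 1 FPKM, and Cd68 reached 2.45 FPKM. In a culture measured in bulk, a change in the share of cells that express a gene and a change in its mRNA per cell cannot be told apart.

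The coding sequences show which of these mRNAs can be told apart by short reads and which cannot. The first 30 bases are printed because the motif read by tubulin mRNA autoregulation lies there, with the first 4 codons in capitals (mm9, GENCODE).
Tubb5: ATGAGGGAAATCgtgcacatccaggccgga
Tubb2c: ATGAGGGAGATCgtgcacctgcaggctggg
Tubb2a: ATGCGCGAGATCgtgcacatccaggcgggc
Tubb2b: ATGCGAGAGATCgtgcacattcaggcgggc
Tuba1b: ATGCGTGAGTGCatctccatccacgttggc
Tuba1c: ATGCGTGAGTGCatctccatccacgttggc
Stmn1: ATGGCATCTTCTgatattcaggtgaaagag
The 3 alpha-tubulin genes shared 1 sequence of their first 4 codons. Tubb2c and Tubb3 shared another, each of the other beta-tubulin genes had its own, and Stmn1 began with unrelated codons. The first 4 codons of the beta-tubulin genes differ only in codons for the same amino acids, so the start of the chain is the same. The last 60 bases of the coding sequence of 4 beta-tubulin genes, stop codon included, code for the acidic tail of the protein.
Tubb5: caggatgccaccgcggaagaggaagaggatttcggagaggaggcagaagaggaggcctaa
Tubb2c: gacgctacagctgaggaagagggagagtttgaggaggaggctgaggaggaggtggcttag
Tubb2a: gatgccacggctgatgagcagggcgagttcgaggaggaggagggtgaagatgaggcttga
Tubb2b: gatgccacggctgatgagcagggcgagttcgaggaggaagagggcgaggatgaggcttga
Over these 60 bases, compared position by position without gaps, Tubb2a and Tubb2b were identical at 57 positions, and Tubb5 and Tubb2c at 36. The coding sequences of Tubb5 and Tubb2c differ in length (1335 and 1338 bases). The 36 can therefore also reflect a shift between them. Over the first 1200 coding bases, Tubb2a and Tubb2b were 96.3% identical and the 3 alpha-tubulin genes 98.2% to 99.3%.

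The likeness of the sequences bears on the values. Of all 50-base windows of the Tubb2a transcript, 46.4% also occurred in Tubb2b, and 38.0% of the windows of Tubb2b occurred in Tubb2a. The transcripts of Tuba1a and Tuba1b shared 57.1% and 64.6% of their windows with another gene, and that of Tuba1c 1156 of 1928 windows, for the most part with one another. Reads from such windows cannot be assigned to 1 gene, and how the assembly divided them is not given, so the separate values of Tubb2a and Tubb2b and of the alpha-tubulin loci are uncertain to that extent. Tubb2c, Tubb3, Tubb6 and Stmn1 shared no window with another protein-coding transcript, and Tubb5 shared 0.1%.

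Tubb5, the constitutive beta-tubulin, was the most abundant beta isotype in every sample. It lies on chromosome 17 of mm9 from 35970871 to 35975251. It was at 390 and 402 FPKM in the Control samples, 490 and 503.5 FPKM in Hh-CM, 409.6 and 419 FPKM in Esrrb, and 651 and 609.7 FPKM in Esrrb + Hh-CM samples. The 4 conditions did not overlap, and the combined condition stood highest. The log2 difference from Control was 0.33 ± 0.04 (SE) with Hh-CM, 0.06 ± 0.04 with Esrrb and 0.67 ± 0.04 with both. The difference with Esrrb alone was within 2 standard errors, and it changed sign to -0.06 when the midpoint of the interval that Cufflinks gives was used in place of the FPKM.

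Tubb2c lies on chromosome 2 from 25077680 to 25080222. It was at 55.5 and 54.4 FPKM in the Control samples, 81.9 and 83.3 FPKM in Hh-CM, 70.2 and 73.3 FPKM in Esrrb, and 157 and 148 FPKM in Esrrb + Hh-CM samples. All 4 conditions were apart, in the order Control, Esrrb, Hh-CM, Esrrb + Hh-CM. Compared with Control, the level was 1.504-fold with Hh-CM, 1.31-fold with Esrrb and 2.77-fold with both, the largest ratio among the tubulin loci. The log2 difference made by Hh-CM was 0.59 ± 0.04 in empty-vector cells and 1.09 ± 0.04 in Esrrb cells. The second was larger by 0.50 ± 0.06, and by 0.70 with the midpoint of the Cufflinks interval.

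Tubb2a and Tubb2b, the brain-enriched pair that lie close together on chromosome 13 (34166170 to 34169877 and 34218877 to 34222223), went the other way with Hh-CM. Tubb2a was at 69.0 and 68.9 FPKM in Control, 54.8 and 56.2 FPKM in Hh-CM, 90.2 and 95.0 FPKM in Esrrb, and 77.5 and 72.7 FPKM in Esrrb + Hh-CM samples. It was thus lowest in Hh-CM cells and highest in Esrrb cells, with no overlap between conditions. Its log2 difference with Hh-CM was -0.31 ± 0.05 in empty-vector cells and -0.30 ± 0.05 in Esrrb cells, and these differed by 0.01 ± 0.06, an amount within its error whose sign turned with the scaling. Tubb2b was at 29.99 and 31.56 FPKM in Control, 21.28 and 21.03 FPKM in Hh-CM, 29.7 and 29.4 FPKM in Esrrb, and 26.1 and 25.9 FPKM in Esrrb + Hh-CM samples. It was lowest in Hh-CM cells as well, but Esrrb alone left it close to Control. That log2 difference was -0.06 ± 0.04, and it became 0.07 when the FPKM were rescaled to the same total. The log2 difference of Tubb2b with Hh-CM was -0.54 ± 0.04 in empty-vector cells and -0.19 ± 0.04 in Esrrb cells. Unlike in Tubb2a, the second was less negative, by 0.35 ± 0.06. The ratio of Tubb2a to Tubb2b was 2.24 ± 0.08 in Control samples, 2.62 ± 0.07 with Hh-CM, 3.13 ± 0.14 with Esrrb and 2.89 ± 0.11 with both (SD, n = 2 each). The FPKM of Tubb2a lay inside its Cufflinks interval in Control replicate 1 and above it in Control replicate 2. The midpoints there were 69.07 and 61.71, beside FPKM of 69.0 and 68.9. These SD leave out that difference, and the ratio was not computed with midpoints.

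Tubb6 and Tubb3 complete the beta-tubulins. Tubb6 was at 49.4 and 49.7 FPKM in Control, 50.3 and 51.5 FPKM in Hh-CM, 62.4 and 65.2 FPKM in Esrrb, and 97.1 and 87.1 FPKM in Esrrb + Hh-CM samples. The log2 difference with Hh-CM was 0.04 ± 0.06 in empty-vector cells, which is within its error, and 0.53 ± 0.06 in Esrrb cells. Tubb3, the neuronal isotype, was the rarest member and did not reach 1 FPKM in any sample. It was at 0.739 and 0.525 FPKM in Control, 0.555 and 0.867 FPKM in Hh-CM, 0.338 and 0.380 FPKM in Esrrb, and 0.260 and 0.111 FPKM in Esrrb + Hh-CM samples. The Control and Hh-CM samples overlapped, and the samples of the combined condition were the lowest. The log2 difference of Tubb3 between the combined condition and Control was -1.40 ± 0.36 with a pseudocount of 0.1, and between -1.87 and -0.46 over the alternatives.

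The merged alpha-tubulin locus was the most abundant of all members, and both alpha loci had 1 pattern. The merged locus of Tuba1a and Tuba1b was at 552 and 559 FPKM in Control, 702 and 701 FPKM in Hh-CM, 647 and 637 FPKM in Esrrb, and 1039 and 962 FPKM in Esrrb + Hh-CM samples. Tuba1c, on chromosome 15 from 98860322 to 98868536, was at 148 and 153 FPKM in Control, 185 and 187 FPKM in Hh-CM, 173.5 and 177.5 FPKM in Esrrb, and 279.7 and 263 FPKM in Esrrb + Hh-CM samples. Both loci had the same order of conditions as Tubb2c, without overlap. The combined condition was 1.80-fold above Control in each of them, with log2 differences of 0.85 ± 0.04. The difference made by Hh-CM was larger in Esrrb cells than in empty-vector cells by 0.30 ± 0.06 and 0.32 ± 0.06.

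Stmn1 lies on chromosome 4 from 134024235 to 134029758. It was at 32.55 and 32.01 FPKM in Control, 69.1 and 62.7 FPKM in Hh-CM, 42.8 and 44.9 FPKM in Esrrb, and 107 and 102 FPKM in Esrrb + Hh-CM samples. The conditions were again apart and in the order of Tubb2c. As a ratio between conditions, Stmn1 had the widest range of the members that passed 1 FPKM. The log2 difference from Control was 1.02 ± 0.06 with Hh-CM, 0.44 ± 0.06 with Esrrb and 1.69 ± 0.06 with both. Without Hh-CM replicate 1, the difference with Hh-CM was 0.95. Hh-CM made a difference of 1.25 ± 0.06 in Esrrb cells, larger than in empty-vector cells by 0.23 ± 0.08. This last value was between 0.11 and 0.30 over the alternatives, and the lowest came with the midpoint of the Cufflinks interval.

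**Figure D1:**
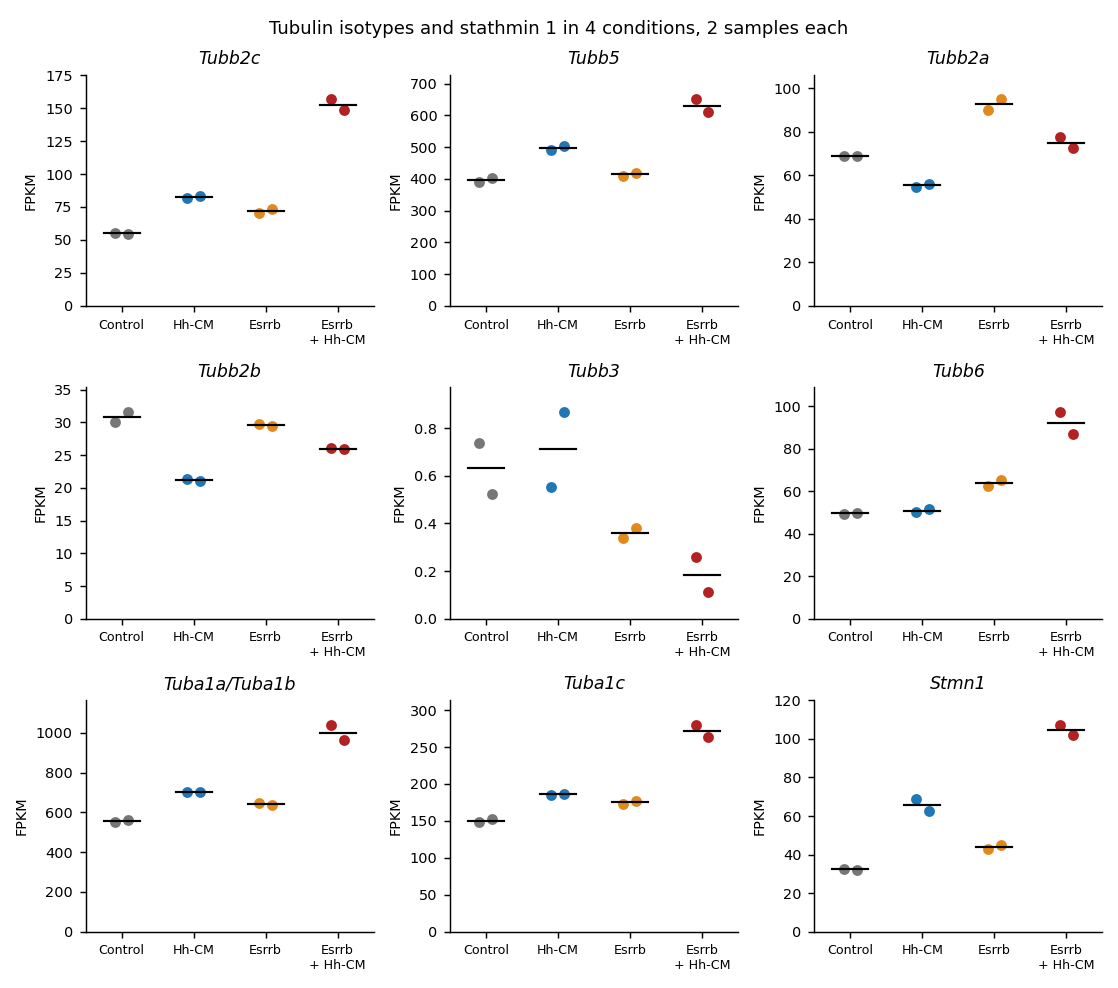
FPKM (linear axes that start at 0) of the 9 member loci in the 4 conditions; points are single samples and bars are the means of 2 samples. In 7 of 9 panels the conditions did not overlap and Esrrb + Hh-CM or Esrrb stood highest; Tubb2b was highest in Control, and in Tubb3 the Control and Hh-CM samples overlapped.

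Some of these FPKM lie outside the interval that Cufflinks printed beside them. This was so for 37 of the 72 member values, for 26 of the 43 whose locus has a RefSeq name and for 11 of the 29 whose locus was numbered by Cufflinks. Among loci with an interval midpoint above 5 FPKM, the FPKM was 0.986 to 1.196 times the midpoint. Tubb6 had a RefSeq name and an FPKM above its interval in the 6 samples of the other conditions, and a numbered locus with an FPKM inside its interval in both Esrrb + Hh-CM samples. Stmn1 had a numbered locus only in Hh-CM replicate 1. With the midpoints, the log2 difference of the combined condition from Control was 1.02 in place of 0.89 for Tubb6, and that of Hh-CM from Control was 1.13 in place of 1.02 for Stmn1.

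The mixture of beta-tubulin mRNAs also differed between conditions. The 6 beta isotypes summed to 601 ± 9.0 FPKM in Control, 708 ± 12.4 FPKM in Hh-CM, 672 ± 13.8 FPKM in Esrrb and 976 ± 45.8 FPKM in Esrrb + Hh-CM samples (SD, n = 2 each). Tubb2c made up 9.15% ± 0.264 of that sum in Control samples, 11.7% ± 0.067 with Hh-CM, 10.7% ± 0.105 with Esrrb and 15.6% ± 0.121 with both. Tubb2a made up 11.5% ± 0.178, 7.84% ± 0.005, 13.8% ± 0.211 and 7.69% ± 0.018 in the same order. In Control and in Esrrb samples there was more Tubb2a than Tubb2c, and with Hh-CM there was more Tubb2c than Tubb2a in both kinds of cells. Tubb5 held the greatest part everywhere, from 61.4% in an Esrrb sample to 70.3% in an Hh-CM sample. Tubb2b held 5.12% ± 0.108 in Control and 2.66% ± 0.111 in Esrrb + Hh-CM samples, and Tubb3 never more than 0.124%.

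**Figure D2:**
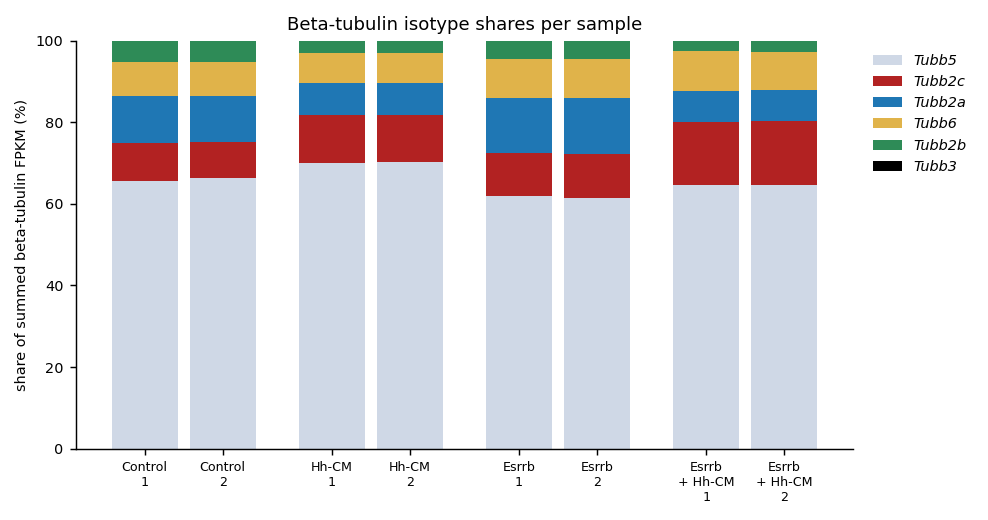
Share of each isotype in the summed beta-tubulin FPKM (percent, stacked bars from 0 to 100) in each of the 8 samples, labelled by condition and replicate. The Tubb2c share was 9.15% in Control and 15.6% in Esrrb + Hh-CM samples on average, and the Tubb2a share was lower in both conditions with Hh-CM.

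The alpha-tubulin loci summed to 706 ± 8.1 FPKM in Control, 888 ± 1.04 FPKM in Hh-CM, 818 ± 4.35 FPKM in Esrrb and 1272 ± 66.0 FPKM in Esrrb + Hh-CM samples (SD, n = 2 each). The ratio of the alpha to the beta sum was between 1.17 and 1.31 in all 8 samples. It was 1.175 ± 0.004 in Control, 1.217 ± 0.031 in Esrrb, 1.255 ± 0.021 in Hh-CM and 1.303 ± 0.007 in Esrrb + Hh-CM samples (SD, n = 2 each). Esrrb replicate 1 (1.239) and Hh-CM replicate 2 (1.24) were almost equal. The FPKM of Tuba1a/Tuba1b lay above the Cufflinks interval in all 8 samples, by unlike amounts. In Esrrb samples it was 647.3 and 637.2 FPKM, with interval midpoints of 624.4 and 571.6. The ratio was not computed with the midpoints, and its order between conditions may depend on that choice. Stmn1 stood at 2.47 ± 0.062 FPKM for each 100 FPKM of tubulin in Control samples, 4.13 ± 0.319 with Hh-CM, 2.94 ± 0.083 with Esrrb and 4.66 ± 0.079 with both, and was higher in both conditions with Hh-CM.

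Differences were fitted over the 10285 genes that reached 1 FPKM in 2 or more samples. Of the 9 member loci, 8 passed this limit and Tubb3 did not. A gene was called when limma's adjusted p was below 0.05 and the log2 difference was 1 or more in size. The comparisons share samples, and the members were chosen with these values known, so nothing is read from how many members were called. Between Hh-CM and Control, 1 member locus (Stmn1) was called higher and 0 lower, beside 1.96% and 0.797% of all tested genes. Between Esrrb and Control, 0 were called higher and 0 lower, beside 0.836% and 0.632%. Of all genes called there, 56.9% were higher, and 67.5% when the FPKM were rescaled to the same total. Between Esrrb + Hh-CM and Control, 2 (Tubb2c and Stmn1) were called higher and 0 lower, beside 4.6% and 1.61%. At an adjusted p below 0.05 alone, 6 were higher and 1 (Tubb2b) lower, beside 23% and 12%. The higher genes were then 65.7% of all called, but 49.4% with the median-ratio scaling and 79.99% with a common total. Between Esrrb + Hh-CM and Hh-CM, 0 were called in either direction, beside 1.11% and 0.865%. Over all genes these were 114 higher and 89 lower, against 92 and 97 with the median-ratio scaling and 150 and 89 with a common total. Between Esrrb + Hh-CM and Esrrb, 2 (Tubb2c and Stmn1) were called higher and 0 lower, beside 3.47% and 1.34%.

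The interaction, the difference made by Hh-CM in Esrrb cells minus that in empty-vector cells, was called on the adjusted p alone. Here 1 member locus (Tubb2c) was called higher and 0 lower, beside 0.758% and 0.593% of the tested genes. Over all genes these were 78 higher and 61 lower, against 126 and 89 with the median-ratio scaling, 61 and 115 with a common total and 34 and 30 with the interval midpoints. Over the 9 loci, the median log2 difference was 0.31 between Hh-CM and Control, 0.22 between Esrrb and Control, 0.85 between Esrrb + Hh-CM and Control, and 0.30 for the interaction. The medians over all tested genes were 0.04, 0.05, 0.08 and 0.00083. The order Control, Esrrb, Hh-CM, Esrrb + Hh-CM without overlap held in 5 of the 8 fitted member loci, beside 3.59% of the tested genes. This is the order seen in Tubb2c, itself a member, and the members were chosen with these values known. Nothing is therefore read from this count. In Tubb5, 1 of the 5, the difference between Esrrb and Control changed sign with the interval midpoints.

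**Figure D3:**
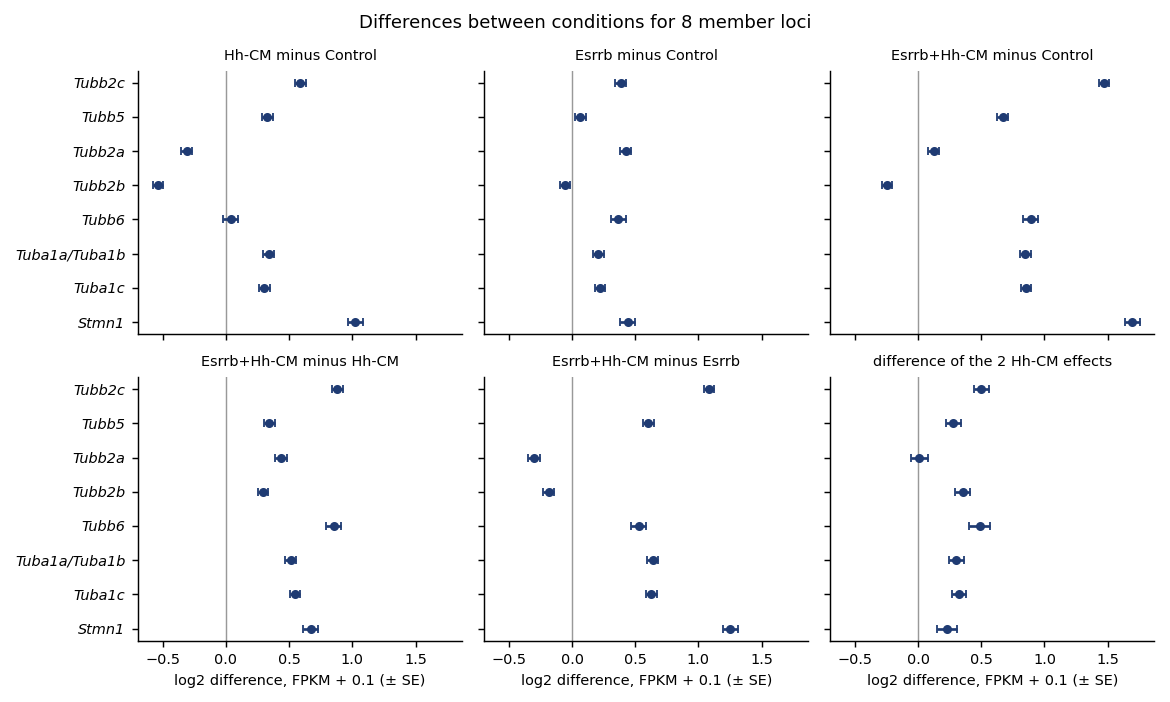
Log2 differences of FPKM + 0.1 (points, with standard errors of the limma fit as bars) for the 8 fitted member loci in the 5 comparisons and for the difference between the 2 Hh-CM effects. Tubb2a and Tubb2b lay below 0 for Hh-CM against Control, at -0.31 and -0.54, while Stmn1 and Tubb2c lay highest for Esrrb + Hh-CM against Control, at 1.69 and 1.47.

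Among the tested genes that are no members, those most like Tubb2c over the 8 samples were Cdk1, Kpna2, Ak1, Plxna2 and Gtse1, with Pearson's r of log2(FPKM + 0.1) from 0.994 to 0.998. Those most like Stmn1 were Top2a, Prr11, Troap, Bzw1 and Slc39a10, with r from 0.996 to 0.997. Among the members, Tubb2c had an r of 1.00 with Tuba1c and with Tuba1a/Tuba1b, 0.97 with Tubb5 and Stmn1, 0.88 with Tubb6, 0.03 with Tubb2a, -0.41 with Tubb2b and -0.72 with Tubb3, which lay below 1 FPKM in every sample. All of these are descriptions over 8 points that come from 4 conditions and share libraries and scaling. The genes that are no members were picked as the highest of 10277.

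Cdk1, the kinase that drives entry into mitosis, and Top2a, the DNA topoisomerase of dividing cells, belong to a list of markers of proliferation, of which 21 were tested. Top2a rose from 14.1 ± 0.135 FPKM in Control to 42.2 ± 1.37 FPKM in Hh-CM samples (log2 difference 1.58 ± 0.04 SE, limma adjusted p = 3.01e-05) and to 95.0 ± 3.08 FPKM with both (2.75 ± 0.04, limma adjusted p = 2.17e-06). It was at 20.75 ± 0.052 FPKM in Esrrb samples, 0.56 ± 0.04 above Control. Mki67, a nuclear protein of cycling cells, was 1.42 ± 0.14 higher with Hh-CM (limma adjusted p = 0.00212) and 2.46 ± 0.14 higher with both (limma adjusted p = 0.000142). Cenpf, a kinetochore protein, was 1.41 ± 0.11 and 2.31 ± 0.11 higher (limma adjusted p = 0.000776 and 6.45e-05).

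Of the 21 markers, 7 were called higher with Hh-CM than in Control samples, 0 with Esrrb and 19 with both, beside 1.96%, 0.836% and 4.6% of all tested genes, and none was called lower in these 3 comparisons. Their median log2 difference between Esrrb + Hh-CM and Control was 1.94, beside 0.08 over all tested genes. Relative to the mean of Control, the median of the markers was 1.92 ± 0.027 with Hh-CM, 1.26 ± 0.043 with Esrrb and 3.82 ± 0.169 with both (SD, n = 2 each). Stmn1 was at 2.04 ± 0.141, 1.36 ± 0.047 and 3.24 ± 0.107 on the same scale, and Tubb2c at 1.504 ± 0.018, 1.31 ± 0.040 and 2.77 ± 0.109. The order of conditions seen in Tubb2c held without overlap in 17 of the 21 markers, beside 3.59% of all tested genes. The marker list was chosen with earlier results of these data known. Among the members, Tubb2a, Tubb2b, Tubb6 and Tubb3 did not share that order. The part of the cells' proliferation in the values of the members was not tested.

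**Figure D4:**
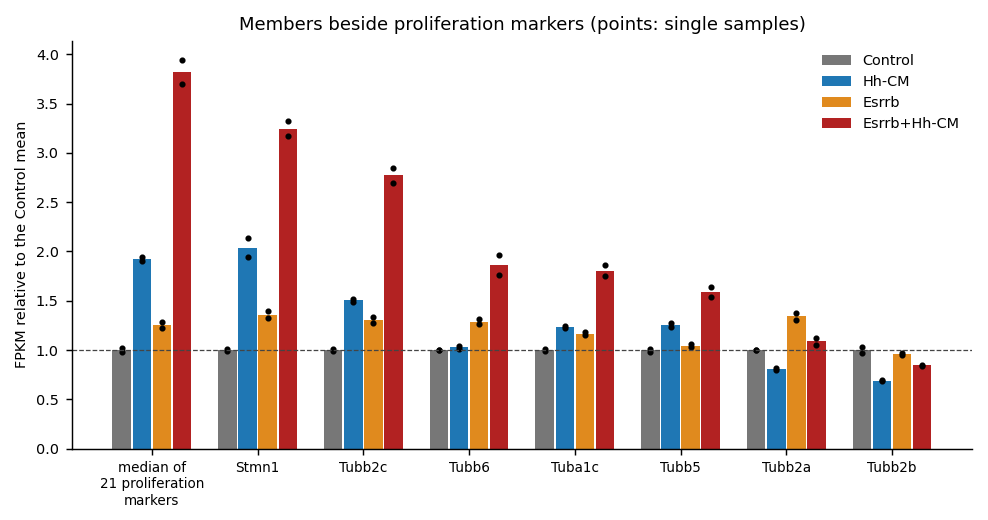
FPKM relative to the mean of the Control samples (linear axis from 0; bars are means of 2 samples, points single samples, the dashed line marks 1) for the median of 21 proliferation markers and 7 member loci. Markers, Stmn1 and Tubb2c reached 3.82, 3.24 and 2.77 in Esrrb + Hh-CM samples, and Tubb2b stayed at 0.844.

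Other genes of the microtubule system were taken from 7 lists with 93 genes, of which 91 were matched in all samples and 73 were tested. Between Esrrb + Hh-CM and Control, 6 of the 73 rose and 1 fell, beside 4.6% and 1.61% of all tested genes, and their median log2 difference was 0.08, the same as over all tested genes. Of 9 severing and depolymerising factors, 4 rose and 0 fell. Kif2c, a kinesin that takes microtubules apart at their ends, rose from 4.87 ± 0.134 to 20.1 ± 0.378 FPKM (2.02 ± 0.08, limma adjusted p = 4.14e-05). Kif18b rose by 2.21 ± 0.17 (limma adjusted p = 0.000368) and Kif18a by 1.60 ± 0.12 (limma adjusted p = 0.000363); both are kinesins that limit the length of spindle microtubules. The fourth was Fignl1.

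Of 4 other tubulins that were tested, 1 rose: Tubg1, the gamma-tubulin that seeds microtubules, by 1.03 ± 0.12 (limma adjusted p = 0.00172), a call that was lost in 4 of 20 alternatives. Of the 10 other tubulin genes that were matched, 5 stayed below 1 FPKM in all samples, as did the 3 other stathmins Stmn2, Stmn3 and Stmn4. None of the 8 genes of the gamma-tubulin complex was called with both thresholds, but 5 of 8 were higher and 0 lower at an adjusted p below 0.05 alone, beside the 23% and 12% given above. With the median-ratio scaling this was 2 of 8.

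Genes for tubulin folding code for the chaperonin subunits, prefoldins and tubulin cofactors. Of 20 tested, 0 were called with both thresholds, and 1 was higher and 8 lower at an adjusted p below 0.05 alone, with a median log2 difference of -0.11, beside 23% and 12% of all tested genes and their median of 0.08. With FPKM rescaled to the same total, where all tested genes shifted to a median of 0.18, the counts were 3 and 6 and the median of the list was -0.02. With the median-ratio scaling they were 0 and 10, and the median was -0.19. The folding genes summed to between 1869 and 2135 FPKM per sample and were highest in Control. The FPKM total over all genes was highest in Control as well. It was 542510 and 533445 there, and 490394 to 526026 in the other samples. The sums of the folding genes were not rescaled to it. In the 16 tested genes for tubulin modification 1 was called, Agbl5, which was listed at 0 FPKM in both Control samples and is given no fold. In the 16 tested microtubule-binding proteins 1 fell, Map2 (Mtap2 in mm9), a stabiliser best known from neurons. It was at 1.26 ± 0.232 FPKM in Control samples, 1.56 ± 0.171 with Hh-CM, 0.0325 ± 0.006 with Esrrb and 0.0764 ± 0.017 with both (SD, n = 2 each; -2.93 ± 0.31 against Control, limma adjusted p = 0.00125; -1.06 with a pseudocount of 1).

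**Figure D5:**
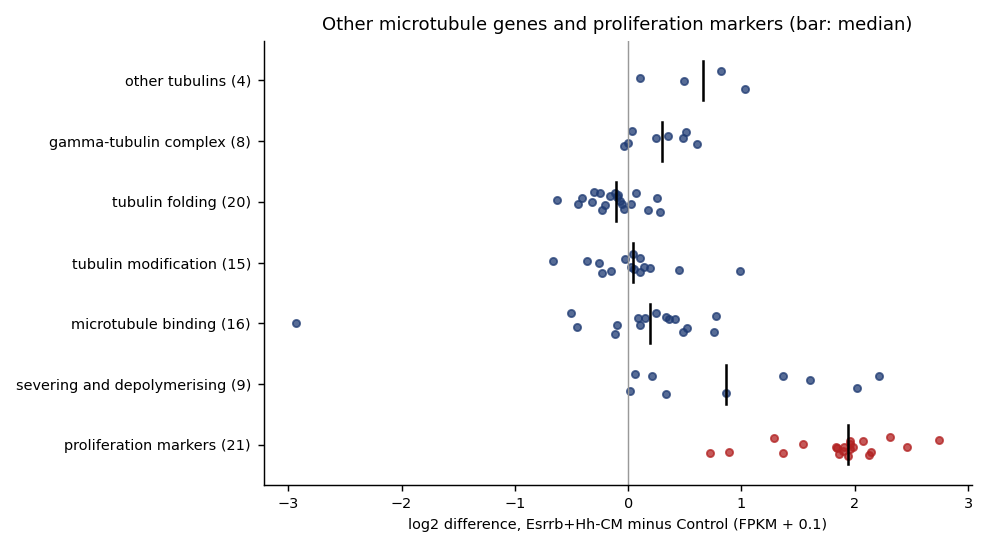
Log2 differences between Esrrb + Hh-CM and Control samples for 72 tested genes of the microtubule lists (blue) and 21 proliferation markers (red); each point is a gene, bars are medians, and the number of genes stands beside each list. Agbl5, listed at 0 in Control, is left out. Proliferation markers had a median of 1.94 and the folding genes of -0.11.

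The promoters of the members were looked up in a RefSeq table of the GRCm38.p6 build, which held 7 of the 10 genes; Stmn1, Tubb2b and Tubb6 were not among them. Coordinates of that build are not those of mm9. The 250 bases before the start are printed for Tubb2c, which was highest with Hh-CM and Esrrb together, for Tubb5 and for Tubb2a, which was lower with Hh-CM. Capitals mark CCAAT or its complement ATTGG, the box that NF-Y binds in many genes of dividing cells. The stretches are chr2:25224703-25224952, chr17:35838302-35838551 and chr13:34078009-34078258, all on the minus strand.
Tubb2c: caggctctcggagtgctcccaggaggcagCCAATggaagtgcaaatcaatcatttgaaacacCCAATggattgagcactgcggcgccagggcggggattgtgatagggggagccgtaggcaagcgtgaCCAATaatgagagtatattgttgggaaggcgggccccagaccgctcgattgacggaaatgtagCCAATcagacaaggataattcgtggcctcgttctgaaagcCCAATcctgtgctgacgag
Tubb5: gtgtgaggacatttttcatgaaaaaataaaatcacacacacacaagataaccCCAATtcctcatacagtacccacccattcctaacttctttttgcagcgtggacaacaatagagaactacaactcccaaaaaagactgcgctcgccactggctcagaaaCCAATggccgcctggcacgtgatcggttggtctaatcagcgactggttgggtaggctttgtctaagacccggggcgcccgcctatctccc
Tubb2a: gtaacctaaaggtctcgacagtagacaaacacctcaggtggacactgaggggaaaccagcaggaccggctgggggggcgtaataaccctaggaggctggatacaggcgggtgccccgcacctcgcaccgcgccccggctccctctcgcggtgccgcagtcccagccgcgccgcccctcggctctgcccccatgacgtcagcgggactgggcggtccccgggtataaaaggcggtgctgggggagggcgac
Both strands of the 250 bases before and the 50 bases after each start were searched. CCAAT occurred 5 times in Tubb2c, at -221, -188, -122, -59 and -19 from the start, and 2 times in Tubb5, at -198 and -90. Tubb3, Tuba1a and Tuba1c held 1 each, Tubb2a and Tuba1b held none, and 37.4% of 32851 promoters of this length held at least 1. The cell cycle homology element TTTGAA occurred in Tubb2c, at -198, and in 17.9% of all promoters. TATAAA lay at -29 in Tubb2a and, after the start, at 19 in Tubb2c, and occurred in 13.6% of all promoters. The GC box GGGCGG occurred in 6 of the 7 promoters, all but that of Tuba1c, and in 35.7% of all promoters. None of the 7 promoters held the letters TCAAGGTCA (an element bound by estrogen related receptors), AGGTCA, GACCACCCA (a Gli site) or either of the E2F sequences TTTCCCGC and TTTGGCGC. Such matches describe the letters in these windows and show no binding.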

How the data were processed

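RNA-Seq values of 8 NIH3T3 samples in 4 conditions were used, 2 a condition, grouped by their labels. The authors filtered the reads with FASTX-Toolkit, mapped them to UCSC mm9 with Bowtie2 and TopHat2, and ran Cufflinks on each sample with the reference annotation as a guide. The versions are not given in the sources used here. The deposited values are FPKM per assembled locus, which the paper calls RPKM, and no counts of reads are given.

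Loci were matched to mm9 genes (GENCODE) by an overlap of at least 0.5, and the best locus of a gene was taken. In this way 72.6% to 77.1% of a sample's loci at or above 1 FPKM went to a gene. For the 10285 genes that reached 1 FPKM in 2 or more samples, limma 3.58.1 (R 4.3.3) was run on log2(FPKM + 0.1). It took all 8 samples, 1 mean for each condition, a variance trend and Benjamini-Hochberg adjustment. Fold changes on this scale understate those of low genes. Tubb3, below that limit, was fitted without it. The fit was tested on simulated data. Depth was estimated from the steps between low FPKM values and limits the precision of genes near 1 FPKM. Python 3.11.15 with pandas 2.3.3 and numpy 2.4.6 did the other steps, and matplotlib 3.10.9 the plots.

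The members and the gene lists were chosen with earlier results of these data known. The genes named are the members, up to 3 genes per list with the largest called difference between Esrrb + Hh-CM and Control and one sign throughout the pairs of samples, the 5 genes most like Tubb2c and Stmn1, and Gli1, Ptch1 and Esrrb as a check of the labels; Ptch1 was at 2.71 ± 0.381 FPKM in Control and 37.0 ± 0.026 FPKM in Hh-CM samples (SD, n = 2). Fignl1, Pfdn2 and the genes with a called interaction were named after their values were seen. With 2 samples against 2 an exact permutation test of 1 gene cannot pass, so only the fit across genes was used. The alternatives tried were a pseudocount of 1 or 0.001, a limit of 1 FPKM in no sample or in every one, a replicate block, median-ratio scaling, a common total, sums of loci, an overlap of 0.8, only the compared groups, no variance trend and each sample left out. The midpoint of the Cufflinks interval was added after seeing the data. The ends of the alpha-tubulin coding sequences are not reported here.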

Additional observations from a re-analysis of the deposited data

Results flagged for a closer look

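In 9 genes of the microtubule and proliferation lists, Agbl5 set aside, the log2 difference with Hh-CM was not the same in samples labelled Esrrb as in empty-vector samples by limma's test of the interaction. The microtubule lists held 73 tested genes and the proliferation list 21, and the lists were chosen with earlier results of these data known. Over all tested genes, 0.758% were called higher and 0.593% lower in this test. The values are the difference in Esrrb samples minus that in empty-vector samples, and all 9 were positive. Of the proliferation markers these were Ccnb1 (0.83 ± 0.12 on the log2 scale, SE), Plk1 (0.77 ± 0.10), Ube2c (0.71 ± 0.10), Tpx2 (0.64 ± 0.09), Top2a (0.61 ± 0.06), Ccna2 (0.59 ± 0.07) and Cdk1 (0.55 ± 0.07). Their limma adjusted p-values ran from 0.0151 for Top2a to 0.0431 for Tpx2. With the midpoint of the Cufflinks interval, 2 in place of 7 of the 21 markers were called. The FPKM of Ube2c lay outside its interval in 5 samples.

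Kif2c, which takes microtubules apart, had an interaction of 0.82 ± 0.11 (limma adjusted p = 0.0401), and this call was lost in 11 of 19 alternatives. Pfdn2, a prefoldin subunit, had an interaction of 0.82 ± 0.08 (limma adjusted p = 0.0121). It was at 140 and 134 FPKM in Control, 77.8 and 76.1 FPKM in Hh-CM, 91.2 and 87.3 FPKM in Esrrb, and 92.6 and 84.7 FPKM in Esrrb + Hh-CM samples. Its level was thus lower with Hh-CM in empty-vector samples, while the Esrrb and Esrrb + Hh-CM samples overlapped. Its FPKM lay outside the interval given with it in all 8 samples.

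Agbl5 also passed the test of the interaction, but it was listed at 0 FPKM in both Control samples and at 3.66 to 5.07 FPKM in the other 6, so no size is given.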

How the results depend on the processing

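The medians over the 9 member loci kept their sign under all alternatives run. Between Hh-CM and Control the median log2 difference of 0.31 became 0.27 with the median-ratio scaling, 0.34 with a common total, 0.27 with the interval midpoints and 0.30 to 0.34 with each sample left out. Between Esrrb and Control, 0.22 became 0.18 with the median-ratio scaling and 0.35 with a common total. Between Esrrb + Hh-CM and Control, 0.85 became 0.77 and 0.94 with these scalings. Between Esrrb + Hh-CM and Esrrb, 0.60 became 0.68 with the midpoints. For the interaction, 0.30 became 0.23 with a common total, 0.38 with the midpoints and 0.25 to 0.36 with each sample left out. A common total shifted the median of all tested genes to 0.18 between Esrrb and Control, and the cause of the other changes was not tested.

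Of the microtubule-list genes, 2 were called between Hh-CM and Control, 1 with a pseudocount of 1 or with 1 FPKM required in every sample, and 2 to 4 with each sample left out (4 without Control replicate 2). Between Esrrb and Control 2 were called and 0 with 1 FPKM required in every sample, where fewer genes were tested. For the interaction 3 were called, and 1 to 3 with each sample left out (1 without Esrrb replicate 2). The interaction of Top2a was lost in 5 of 19 alternatives, each with 1 sample left out.

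With a replicate block the median between Esrrb + Hh-CM and Control was 0.85 and 7 microtubule-list genes were called, and 2 in place of 3 for the interaction. The difference of replicate 1 from replicate 2 in each condition was correlated between conditions, over all tested genes. These correlations ran from -0.060 to 0.062 over 6 pairs of conditions, so same-numbered samples did not deviate together. Whether they shared a culture or a transfection was not tested. The interaction could not be fitted from the compared groups alone, since it needs all 4. The lack of read counts limits genes near 1 FPKM, Tubb3 above all.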
